A study of Mus musculus with 2 samples.

Results

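Zfp36, Zfp36l1, Zfp36l2, Btg1 and Btg2 encode small regulators that shorten the life of messenger RNA, and they were followed here through single thymocytes of the mouse. The members were chosen by name, 5 of the 32285 genes counted. Their levels were compared in 10007 of 16179 cell barcodes, those with at least 1000 genes, at most 5% mitochondrial counts and 1 clear hashtag. The gene library and the hashtag library share all of these barcodes.

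The proteins of the Zfp36 family, ZFP36 (tristetraprolin), ZFP36L1 and ZFP36L2, are zinc finger proteins that bind AU-rich elements in the 3′ untranslated region (UTR) of messenger RNAs and recruit the CCR4-NOT complex, which removes the poly(A) tail. BTG1 and BTG2 are antiproliferative proteins that bind the CNOT7 and CNOT8 deadenylase subunits of the same complex and are known for keeping T cells quiescent. In developing lymphocytes ZFP36L1 and ZFP36L2 are known for restraining the cell cycle while antigen receptor genes rearrange.

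In the study, thymocytes were sorted by flow cytometry from Ctrl mice and from T-KO mice, in which a floxed Kidins220 gene is deleted by Cre under the proximal Lck promoter, a promoter active in developing T cells. Per the labels the background is C57BL/6, the thymi of 4 mice were pooled for each genotype, and 2 replicate sorts were made of each population. The age of these mice is not given for this experiment. Stage 0 invariant natural killer T (iNKT) cells were gated as TCRβ+ CD1d tetramer+ CD24+ NK1.1-, and stage 3 cells as TCRβ+ CD1d tetramer+ NK1.1+ CD24- CD44+. Each of the 8 populations carried a hashtag antibody before they were pooled and sequenced together as 1 droplet library read from the 5′ end of transcripts.

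The submitters name hashtags 1 to 8, whereas 8 rows numbered 11 to 18 are in use in the counts, and no source used here pairs them. No row was therefore assigned to a stage or a genotype, Ctrl and T-KO were not compared, and the matrix is 1 pooled sample. No test between groups was run, and each hashtag row is given as a single value. The rows held between 577 and 2162 cells and between 2283162 and 14601545 gene counts, and the median cell had 7135 counts in rows 11, 13, 15 and 17 (the odd rows) against 3400.5 in rows 12, 14, 16 and 18 (the even rows). Counts are unique molecular identifiers (UMIs), and levels are UMIs per 1000000 gene UMIs of the same cells (CPM). Intervals are exact 95% intervals that cover counting error only.

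Transcripts of the stage 3 marker NK1.1 and of the invariant receptor were clear in the even rows. There Klrb1c, which encodes NK1.1, stood at 408 CPM and Trav11, the variable segment of the invariant receptor chain, at 48.3 CPM, against 5.45 and 0.701 CPM in the odd rows. Cd24a, which encodes CD24, was at 28.5 CPM in the even rows and 349 CPM in the odd rows. Both sorts were gated as tetramer+, but stage 0 as NK1.1- and CD24+. The even rows thus carry the markers of the stage 3 gate, though no label gives a row its stage. The odd rows were a mixture, so their cells were split by the first match of at least 2 UMIs of Cd79a (a B cell receptor component, 810 cells), at least 5 UMIs of Cst3 (high in myeloid and dendritic cells, 972 cells), at least 1 UMI of Rag1 (the recombinase of thymocytes that rearrange receptor genes, 418 cells) and at least 2 UMIs of Ikzf2 (Helios, 1106 cells). The remaining 943 cells matched none. In its own first clustering the study found B cells, myeloid cells, and CD4+ CD8+ and CD4- CD8- thymocytes, and removed them. The paper proposes a poor CD1d tetramer stain in that sort as a possible reason for the thymocytes among them. The Ikzf2+ cells carried Sox4 at 626, Itm2a at 412 and Tnfrsf9 at 179 CPM, whereas Trav11 was at 0.583 and Zbtb16, the master factor of iNKT cells, at 11.3 CPM, below the 71.5 CPM of the even rows. They are therefore named by their rule and given no cell type. Of the 5758 cells in the even rows, 225 also matched a split gene and were kept.

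The sequences that the Zfp36 proteins recognise are found in the messages of the family itself. TATTTAT, the DNA form of the core AU-rich heptamer, was searched on the coding strand in the 3′ UTR of the longest protein-coding transcript of each gene (GENCODE M21 on GRCm38). It occurred 3 times in Zfp36 (UTR of 774 bases), 3 times in Zfp36l1 (1835 bases), 3 times in Zfp36l2 (1822 bases), 1 time in Btg2 (2199 bases) and 0 times in Btg1 (4166 bases). It is present in 27.4% of 21020 protein-coding genes and in 12 of 16 messages listed here as known targets of the family (75.0%). Other lists used further on were also above 27.4%, with 10 of 17 decay regulators, 4 of 8 immediate-early genes, 6 of 14 quiescence genes and 7 of 19 deadenylation genes. Below it were 3 of 15 mitotic genes, 3 of 11 S phase genes (27.3%) and 1 of 6 genes of the p38 pathway. The length of the UTR was not taken into account. All 5 genes have 2 exons. Zfp36 spans chr7:28376784-28380253 and Zfp36l1 chr12:80107754-80113013, both on the minus strand. Zfp36l2 spans chr17:84183931-84187947 and Btg2 chr1:134075170-134079120, also on the minus strand, and Btg1 lies on the plus strand at chr10:96617006-96622809. An opposite-strand gene overlaps Zfp36 (Gm44710), Zfp36l1 (Gm26669) and Zfp36l2 (AC132455.1). One site of each message that holds the heptamer is shown 5′ to 3′, with the heptamer in capitals. For Zfp36, Zfp36l1 and Zfp36l2 it is the only site, of 3, with a T directly on both sides. The sites of these messages that are not shown, and the site of Btg2, do not have a T on both sides.
Zfp36, chr7:28376951-28376979 (minus strand): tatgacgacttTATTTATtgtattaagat
Zfp36l1, chr12:80108167-80108195 (minus strand): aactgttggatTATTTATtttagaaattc
Zfp36l2, chr17:84184914-84184942 (minus strand): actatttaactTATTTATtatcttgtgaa
Btg2, chr1:134077249-134077277 (minus strand): aaatgaagagcTATTTATacatgtttttt

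Zfp36 and Btg2 are also known as immediate-early genes, whose promoters respond within minutes to growth factor, antigen receptor and stress signals through serum response factor at CArG boxes and CREB at cyclic AMP response elements. The windows from 250 bases before to 50 bases after the start of each gene (RefSeq, GRCm38.p6) were searched on both strands for a CArG box, for TGACGTCA and for the AP-1 site TGAGTCA, which do not overlap in the matches shown. The table held 4 of the 5 members, without Zfp36l2. Zfp36 had a CArG box, present in 1.63% of 32851 promoters, and Btg2 had TGACGTCA, present in 1.79%. TGAGTCA is present in 5.2% of promoters. None of the 3 motifs was in the windows of Btg1 and Zfp36l1. Both matches are shown, and no link between a motif and a level was tested. As described further on, Zfp36 and Btg2 moved most with other immediate-early transcripts in the even rows. In the Ikzf2+ cells Zfp36 again moved most, but Btg2 moved least, below Zfp36l1 and Btg1. The RefSeq start of Zfp36 used here lies 1025 bases inside the span that GENCODE gives the gene, so its window is within that span, whereas the Btg2 start lies outside it.
Zfp36, chr7:28379247-28379316 (minus strand, CArG box in capitals): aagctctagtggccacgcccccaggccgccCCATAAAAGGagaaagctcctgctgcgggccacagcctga
Btg2, chr1:134079284-134079351 (minus strand, TGACGTCA in capitals): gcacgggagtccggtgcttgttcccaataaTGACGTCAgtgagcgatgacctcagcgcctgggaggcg

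All members were well counted, with 25325 to 33756 UMIs each over all barcodes. Relatives contributed little or separately. Zfp36l3 had 1 UMI, Btg4 and the pseudogenes Btg1-ps1 and Btg1-ps2 had 0, and Btg3 had 4856.

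Zfp36 was highest in the Cst3+ cells, summed over rows, and lowest in the Rag1+ cells. Zfp36 stood at 484, 534, 335 and 460.2 CPM in rows 12, 14, 16 and 18. It was at 672, 533, 498 and 443 CPM in the Cst3+ cells of rows 11, 13, 15 and 17, a range that overlaps the even rows. The Cd79a+ cells had 311, 411, 291 and 259.7 CPM and also overlapped the even rows. Much lower, the Ikzf2+ cells had 144, 144, 105 and 102 CPM. The remaining cells, at 218, 87.4, 94.8 and 105 CPM, overlapped the Ikzf2+ cells. At the bottom, the Rag1+ cells had 56.8, 34.2, 26.0 and 33.2 CPM, with every row below every row of the other classes.

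Zfp36l1 had a different order, highest in the Cd79a+ and Ikzf2+ cells. It was at 482, 516, 532 and 472 CPM in the Ikzf2+ cells and at 502, 530.1, 569.7 and 678 CPM in the Cd79a+ cells, ranges that overlap. Every Ikzf2+ row lay above the even rows, at 306, 313, 341 and 331 CPM, and these lay above the Cst3+ cells, at 277, 237, 217 and 260.0 CPM. The remaining cells had 243, 131, 152 and 152 CPM and overlapped the Cst3+ cells. Again the Rag1+ cells were lowest, at 87.5, 69.9, 77.3 and 72.0 CPM.

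Zfp36l2 was highest in the even rows and lowest in the Cd79a+ cells. The even rows had 516, 561, 414 and 529 CPM. Next came the remaining cells at 409.8, 318, 212 and 262 CPM, whose highest row was just below the lowest even row. The Cst3+ cells (250.2, 207, 207 and 222 CPM) and the Ikzf2+ cells (279.7, 213, 173 and 168 CPM) overlapped each other and the remaining cells. Rag1+ cells held 147, 147, 138 and 154 CPM, below every Ikzf2+ row, and the Cd79a+ cells 62.3, 85.1, 59.9 and 98.8 CPM. Unlike for the other members, the Cd79a+ cells, not the Rag1+ cells, held the lowest summed level.

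Btg1 and Btg2 shared their maximum, the even rows. Btg1 was at 657, 706, 597 and 752 CPM there, and the Cd79a+ cells, at 493, 548, 532 and 602 CPM, overlapped this range. In the Ikzf2+ cells it was at 256, 252, 199 and 207 CPM, in the Cst3+ cells at 243, 182, 168 and 237 CPM and in the remaining cells at 207, 117, 122 and 138 CPM, each range overlapping the next. The Rag1+ cells had 70.7, 59.9, 38.9 and 41.7 CPM, below all others.

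Btg2 reached 439, 530.1, 403 and 565 CPM in the even rows, above every row of every other class. The Cst3+ cells (275, 235, 212 and 191 CPM) and Cd79a+ cells (208, 218, 173 and 188 CPM) overlapped. The Ikzf2+ cells, at 136, 146, 135 and 147 CPM, the remaining cells, at 156, 137, 105 and 141 CPM, and the Rag1+ cells, at 144, 134, 122 and 105 CPM, lay below both and overlapped one another, so they could not be ordered.

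**Figure D1:**
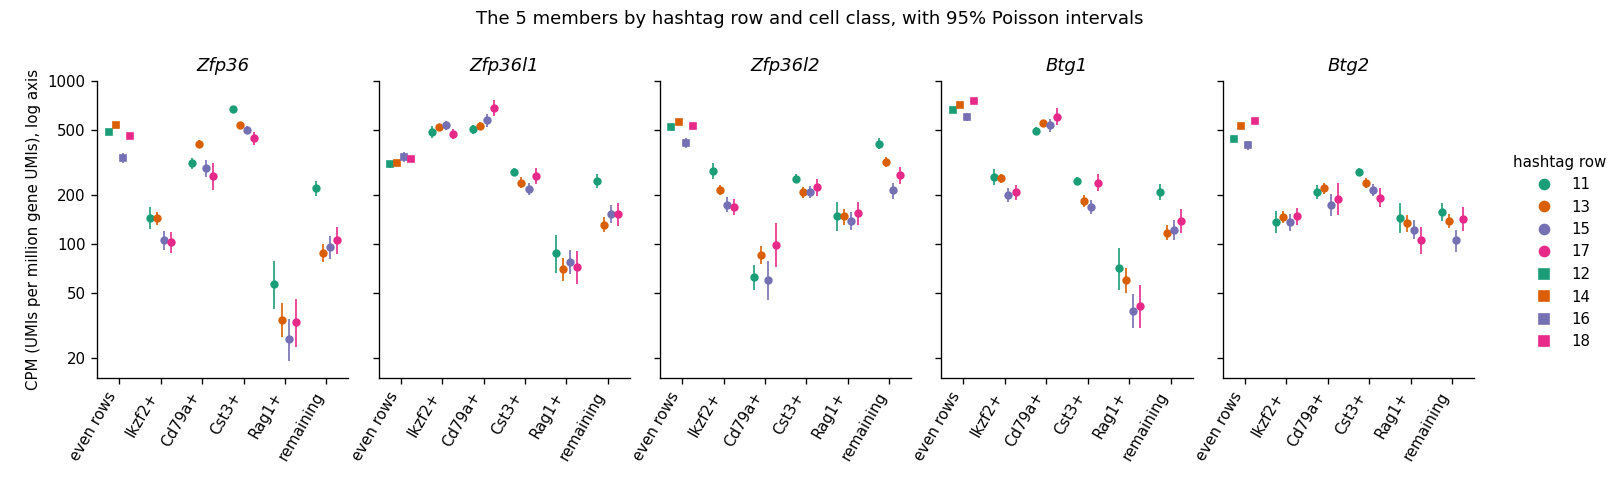
Level of each member in CPM (log axis) in the even rows 12, 14, 16 and 18 (squares, all cells) and in 5 classes of cells of the odd rows 11, 13, 15 and 17 (circles), with exact 95% Poisson intervals for counting error. Zfp36, Zfp36l1 and Btg1 are lowest in the Rag1+ cells, whereas Zfp36l2 is lowest in the Cd79a+ cells, and Btg2 in the even rows lies above all other classes.

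Depth per cell differs between these classes, so the share of cells with a UMI was also taken after thinning each cell to 2000 UMIs. For Zfp36 it was 53.2% in the even rows, 25.3% in the Ikzf2+ cells and 8.03% in the Rag1+ cells, from 66.6%, 49.8% and 30.6% before thinning. Zfp36l1 went the other way, with 44.3% in the even rows and 59.7% in the Ikzf2+ cells after thinning. For Btg2 the thinned shares were 59.0%, 27.6% and 25.1% in the same 3 groups. Cells with fewer UMIs were left out, 552 in the even rows, 53 Ikzf2+ and 29 Rag1+ cells. As a yardstick for free RNA, Cd79b was found in 2.49% of even-row cells that match no split gene (median 3374 UMIs) and in 94.7% of Cd79a+ cells (median 6002 UMIs), and Klrb1c in 5.06% of Cd79a+ cells. In the deeper Rag1+ cells Cd79b stood at 12.5 CPM, and the part of free RNA in the low Zfp36 level there was not tested.

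The comparison of Ikzf2+ cells with the even rows sets Helios transcript-bearing cells beside the rows that carry NK1.1 transcripts. Zfp36, Zfp36l2, Btg1 and Btg2 were all lower in the Ikzf2+ cells, and Zfp36l1 was higher. Summed over rows, Zfp36 was at 126 against 479.6 CPM, a ratio of 0.263 (95% interval 0.246 to 0.28). Btg2 was at 142 against 497 CPM (ratio 0.286, 0.269 to 0.303), Btg1 at 231 against 690.2 CPM (0.334, 0.319 to 0.35) and Zfp36l2 at 204 against 524 CPM (0.389, 0.369 to 0.409). Zfp36l1 was at 506 against 318 CPM, a ratio of 1.59 (1.53 to 1.65). For each member the rows of the 2 groups did not overlap.

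A gene was called here when its log2 ratio, with 10 CPM added to both levels, passed 1.5-fold and its rows did not overlap, or, within rows, had the same sign in every row. Among 7405 genes with at least 20 CPM in either group, 23.8% were called higher and 12.7% lower, and the median log2 ratio was 0.20. Of the members 4 were called lower, with log2 ratios of -1.85 (Zfp36), -1.74 (Btg2), -1.54 (Btg1) and -1.32 (Zfp36l2), and 1 higher, Zfp36l1 at 0.65. With trimmed-mean (TMM) scaling the median of all genes moved to -0.08, 13.4% were called higher and 20.1% lower, and Zfp36l1, at 0.36, was no longer called.

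Mitotic state and depth moved with this comparison. Mitotic cells, those with at least 0.1% of their UMIs on 15 mitotic genes, made up 30.4% of the Ikzf2+ cells and 6.29% of the even rows, and the median cell had 5518 and 3400.5 UMIs. Without the mitotic cells of both groups Zfp36l1 was at 811 against 322 CPM (log2 ratio 1.30), Btg1 at 379 against 704 CPM (-0.88), Zfp36 at -1.38, Btg2 at -1.37 and Zfp36l2 at -1.51, and all 5 remained called. Among cells of 3000 to 6000 UMIs the difference in Zfp36l1 was larger still, 946 against 320.0 CPM (1.53), and that in Btg1 smaller, 436 against 693 CPM (-0.66). The immediate-early share of UMIs also differed, with a median of 0.121% in the Ikzf2+ cells and 0.23% in the even rows. Between cells with a share of 0.1 to 0.3% in both groups the log2 ratios were -1.40 for Zfp36, 1.00 for Zfp36l1, -0.94 for Zfp36l2, -1.24 for Btg1 and -1.67 for Btg2.

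Genes that act with the members differed in parts. Of the 11 tested quiescence genes 6 were called lower in the Ikzf2+ cells, with a list median of -1.13. Il7r, the interleukin-7 receptor chain, was at 53.5 against 842 CPM, Slfn2 at 26.7 against 256 CPM, Klf2 at 125 against 423 CPM and Klf6 at 84.9 against 302 CPM. Klf3 and Tsc22d3 were the other 2 called lower. Foxo1, at 73.3 against 62.8 CPM, and the cyclin-dependent kinase inhibitor Cdkn1b, at 92.3 against 117 CPM, were not called.

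Among 18 tested genes of CCR4-NOT and deadenylation 5 were called higher and 1 lower, near the 23.8% of all genes called higher, and their median of 0.31 was near the 0.20 of all genes. Higher were Pabpc4, a poly(A) binding protein (101 against 36.4 CPM), and the CCR4-NOT subunit Cnot2 (111 against 60.7 CPM). The deadenylases Cnot6 (95.4 against 54.0 CPM) and Cnot7 (56.2 against 31.9 CPM), and Parn (32.2 against 17.6 CPM), were also higher. Tob1, an antiproliferative relative of the BTG proteins, was lower like Btg1 and Btg2, at 22.5 against 54.2 CPM. Btg3 was at 53.8 against 71.5 CPM and was not called. Of 15 tested regulators of AU-rich elements and decay 4 were called higher, also near 23.8%, and 0 lower, with a median of 0.39. Tia1 (122 against 39.3 CPM), Hnrnpd (447 against 258 CPM), Ythdf2 (129.7 against 71.5 CPM) and the stabilising protein Elavl1 (199 against 129 CPM) were these 4. Of 6 tested genes of the p38 pathway that phosphorylates ZFP36 proteins, 2 were called lower, the phosphatase gene Dusp1 (127 against 641 CPM) and Mapkapk3 (14.6 against 44.1 CPM).

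Among 11 tested known targets of the Zfp36 family 1 was called higher, against 23.8% of all genes, and 3 lower, against 12.7%. Their median log2 ratio was -0.43, below the 0.20 of all genes. The cytokine genes Ifng (2.1 against 158 CPM) and Tnf (4.08 against 38.7 CPM) and the cyclin gene Ccnd2 (169 against 384 CPM) were lower, and Cdk6 was higher (199 against 17.6 CPM). For comparison all 15 mitotic genes and all 11 S phase genes were called higher, with medians of 2.27 and 1.41, and the immediate-early list had 2 higher and 3 lower of 8.

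**Figure D2:**
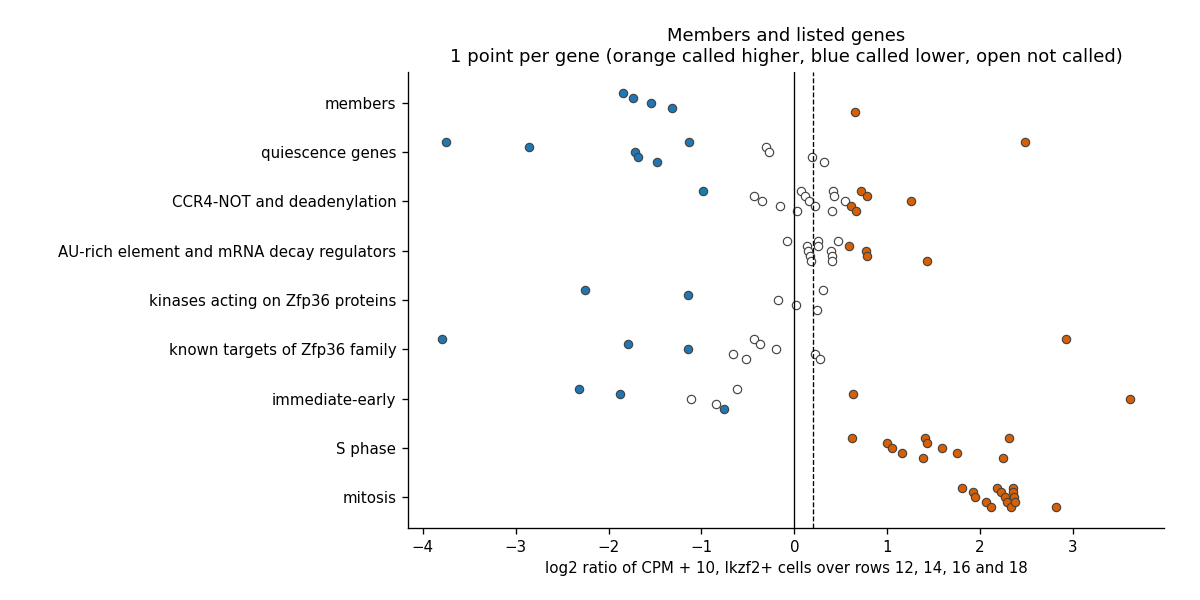
Log2 ratio of CPM + 10 between the Ikzf2+ cells and the even rows for the members and for the tested genes of 8 lists, with 1 point per gene (orange called higher, blue called lower, open not called) and a dashed line at the median of all tested genes, 0.20. Most called quiescence genes lie to the left with Zfp36, Zfp36l2, Btg1 and Btg2, and all S phase and mitotic genes lie to the right.

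Within the odd rows each class could be set against the Ikzf2+ cells of the same row. In Rag1+ cells, thymocytes that still transcribe a recombinase gene, 3 members were called lower, against 12.8% of 7044 genes, and 0 higher, against 4.17%. Zfp36l1 was at 74.7 against 506 CPM (ratio 0.148, 95% interval 0.133 to 0.163), Btg1 at 51.1 against 231 CPM (0.221, 0.195 to 0.251) and Zfp36 had a ratio of 0.27 (0.23 to 0.315). Zfp36l2 was at 145 against 204 CPM and lower in 4 of 4 rows, without passing 1.5-fold (log2 ratio -0.46). Btg2, at 126 against 142 CPM, was lower in 3 of 4 rows.

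The Rag1+ cells were deeper and mostly mitotic. Their median was 13562 UMIs against 5518, and 78.7% against 30.4% passed the mitotic limit. The limit of at least 1 Rag1 UMI is reached more readily in deep cells, so shallow cells of this kind may be among the remaining cells. There the thymocyte genes Dntt and Cd8b1 were at 620.3 and 173 CPM, beside 779 and 338 CPM in the Rag1+ and 304 and 74.8 CPM in the Ikzf2+ cells. The part of the limit in the depth of the Rag1+ cells was not tested. In the Rag1+ cells the median immediate-early share was 0.0412% against 0.121%, and Junb, Egr1, Ier2 and Nr4a1 were called lower among 7 tested immediate-early genes. The part of this share in the members' ratios was not tested. Counted per cell, Rag1+ cells had more Zfp36l2 (1.94 against 1.58 UMIs) and Btg2 (1.68 against 1.1 UMIs) and less Zfp36l1 (0.998 against 3.92 UMIs), Btg1 (0.682 against 1.79 UMIs) and Zfp36 (0.455 against 0.976 UMIs). Among mitotic cells only, with medians of 16243 and 13186 UMIs, the log2 ratios were -1.72 for Zfp36l1, -1.12 for Zfp36, -0.66 for Zfp36l2 and 0.18 for Btg2, and Btg1 was at 40.4 against 91.1 CPM, so that 4 members were called lower, Zfp36l2 included. In cells of 10000 to 20000 UMIs, over 3 rows, the same 4 members were called lower.

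Other listed genes in the Rag1+ cells followed in part. None of the 18 tested deadenylation genes and none of the 15 tested decay regulators were called. Klf2 (10.6 against 125 CPM) and Foxo1 (18.6 against 73.3 CPM) were lower and Klf3 was higher (80.4 against 47.0 CPM) among 11 quiescence genes. Of 10 known targets Notch1 (151 against 63.5 CPM) and Ccnd3 (588 against 369 CPM) were higher, and Ccnd2, Bcl2, Mcl1, Nfkbid and Pim1 were lower, with Bcl2 at 18.6 against 117 CPM.

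The remaining cells of the odd rows differed from the Ikzf2+ cells mainly in Zfp36l1. It was at 164 against 506 CPM (ratio 0.324, 0.304 to 0.346), and Btg1 at 142 against 231 CPM (0.614, 0.568 to 0.663). These 2 members were called lower, against 4.22% of 7060 genes. No member was called higher, against 1.76%, but Zfp36l2 was higher in 4 of 4 rows, at 307 against 204 CPM (ratio 1.51, 1.42 to 1.61), and its log2 ratio of 0.57 fell just short of 1.5-fold. Zfp36 (121 against 126 CPM) and Btg2 (135 against 142 CPM) had row log2 ratios of both signs. Of the remaining cells 40.5% were mitotic, against 30.4% of the Ikzf2+ cells, with medians of 4159 and 5518 UMIs. The part of mitotic state in these ratios was not tested. Among cells of 3000 to 6000 UMIs Zfp36l2 was called higher, at 404 against 204 CPM, and Btg1, at 371 against 436 CPM, was not called.

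The Cd79a+ and Cst3+ cells were set against the Ikzf2+ cells in the same way. Mitotic cells made up 8.52% of the Cd79a+ and 29.3% of the Cst3+ cells, against 30.4% of the Ikzf2+ cells. Median depth was 6002 UMIs in the Cd79a+ and 10487 UMIs in the Cst3+ cells, against 5518 UMIs. The part of mitotic state and depth in the members' ratios was not tested. In Cd79a+ cells Zfp36 (350.1 against 126 CPM, ratio 2.78, 2.58 to 2.99) and Btg1 (531 against 231 CPM, 2.3, 2.18 to 2.43) were called higher and Zfp36l2 (74.8 against 204 CPM, 0.368, 0.332 to 0.407) lower, against 10.5% and 43.1% of 7481 genes. The median log2 ratio of all genes was -0.52 here. With TMM scaling it was -0.02, 19.1% were called higher and 14.9% lower, and all 5 members were called. In Cst3+ cells Zfp36 (569 against 126 CPM, 4.51, 4.23 to 4.82) and Btg2 (241 against 142 CPM, 1.69, 1.58 to 1.81) were called higher and Zfp36l1 (ratio 0.494, 0.471 to 0.518) lower, against 12.4% and 17.7% of 7465 genes with a median of -0.26. TMM scaling gave 16.9% and 8.99% there. Of the immediate-early list 4 of 7 tested genes were called higher and 1 lower in the Cd79a+ cells, and 5 of 8 higher and 2 lower in the Cst3+ cells. Fos was higher in both classes (617 and 599 against 146 CPM), and Nr4a1 was lower in both (30.9 and 30.4 against 317 CPM). Egr1 was lower in the Cst3+ cells (71.1 against 149 CPM).

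Mitotic cells by the limit above were compared with the others within the Ikzf2+ cells of each row. The word names this limit and not the phase of each cell. In the even rows the S phase genes Rrm2 (339 against 19.7 CPM) and Tyms (128 against 21.5 CPM) were also higher past it, and Ung was not called. The class held 336 mitotic cells, 73 of them with a share of 0.1 to 0.2%, and 770 others, 138 of them with 0.05 to 0.1% and 251 with 0. As a share of all transcripts 4 members were lower in mitotic cells, and Zfp36l2 was not. Btg1 was at 124, 96.8, 55.6 and 101 CPM in the mitotic cells of rows 11, 13, 15 and 17 and at 404, 392, 370.4 and 340.2 CPM in the others. Zfp36l1 was at 254, 251, 172 and 195 CPM against 738, 753, 959.6 and 822 CPM. Neither gene had overlapping rows. Zfp36 (98.0, 89.7, 39.5 and 68.2 against 196, 192, 184 and 145 CPM) and Btg2 (109, 105, 83.4 and 97.7 against 167, 183, 195 and 209 CPM) were likewise separated. Zfp36l2 was higher in the mitotic cells of each row, at 316, 233, 208 and 183 against 239, 195, 132 and 149 CPM.

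Summed over rows the ratios were 0.24 for Btg1 (0.215 to 0.268), 0.27 for Zfp36l1 (0.251 to 0.29), 0.404 for Zfp36 (0.353 to 0.46), 0.523 for Btg2 (0.464 to 0.589) and 1.28 for Zfp36l2 (1.16 to 1.41). Of the members 4 were called lower, against 13.4% of 7345 genes, and 0 higher, against 9.58%.

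Mitotic cells were far deeper, with a median of 13186 against 4477 UMIs, and the number of UMIs per cell told these members apart further. Zfp36l2 went from 0.962 to 2.99 UMIs per cell, higher in 4 of 4 rows. Btg2 went from 1.02 to 1.29 and Zfp36 from 0.982 to 0.964 UMIs per cell, so that their lower CPM came with counts per cell that were higher in 4 of 4 rows (Btg2) or lower in row 15 and higher in the other rows (Zfp36). Only Zfp36l1, from 4.38 to 2.88, and Btg1, from 2.05 to 1.2, had fewer UMIs per cell in 4 of 4 rows. In cells of 6000 to 20000 UMIs, with medians of 13492 and 8584, Zfp36l1 (247 against 601 CPM, log2 ratio -1.25) and Btg1 (102 against 270.0 CPM, -1.32) were still called lower. Zfp36 (-0.56) and Btg2 (-0.50) no longer passed 1.5-fold in this window. In the narrower window of 5000 to 10000 UMIs a single row had enough cells, and there Zfp36l1 was at 609.7 against 712 CPM (-0.22).

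**Figure D3:**
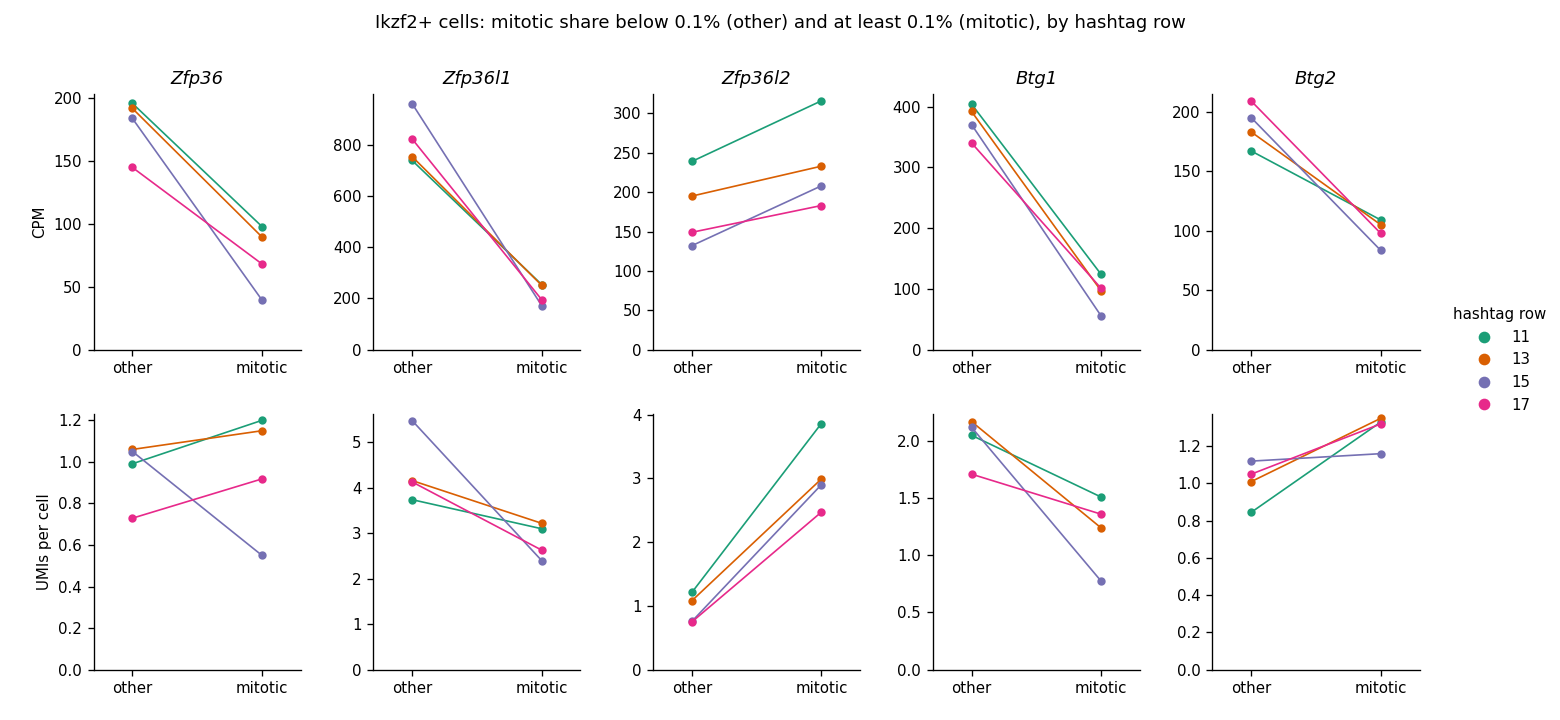
Level of each member in CPM (top) and in UMIs per cell (bottom) in the Ikzf2+ cells of rows 11, 13, 15 and 17 with a mitotic share below 0.1% (other) and at least 0.1% (mitotic). The lines of Zfp36l1 and Btg1 go down on both scales, and those of Zfp36l2 go up on both, whereas Btg2 goes down in CPM and up in UMIs per cell.

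The same split in the Cst3+, remaining and Rag1+ cells gave log2 ratios below 0 in every row for Zfp36, Zfp36l1, Btg1 and Btg2. In Cst3+ cells, with medians of 15415 and 9465 UMIs, the log2 ratios were -1.70 for Zfp36, -1.40 for Zfp36l1, -1.47 for Btg1 and -0.74 for Btg2. The remaining cells (11972 against 3087 UMIs) had -1.78, -1.95, -2.14 and -0.95 for the same genes, and the Rag1+ cells of 3 rows (15969 against 3684 UMIs) had -1.46, -1.90, -1.72 and -1.16. Zfp36l2 was higher in the mitotic Cst3+ cells in 4 of 4 rows (279 against 189 CPM, log2 ratio 0.54) and lower in the mitotic remaining cells in 4 of 4 rows (265 against 381 CPM, -0.51) and in the mitotic Rag1+ cells in 3 of 3 rows (136 against 204 CPM, -0.55). In the Cd79a+ cells, with enough mitotic cells in 2 rows, Zfp36l2 had a log2 ratio of 0.51 and Btg1 of -0.92. In the even rows the log2 ratios were smaller, -0.51 for Zfp36, -0.30 for Zfp36l1, -0.10 for Zfp36l2, -0.51 for Btg1 and -0.23 for Btg2. There the 362 mitotic cells were not deeper than the others, with medians of 2620.0 and 3431 UMIs.

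**Figure D4:**
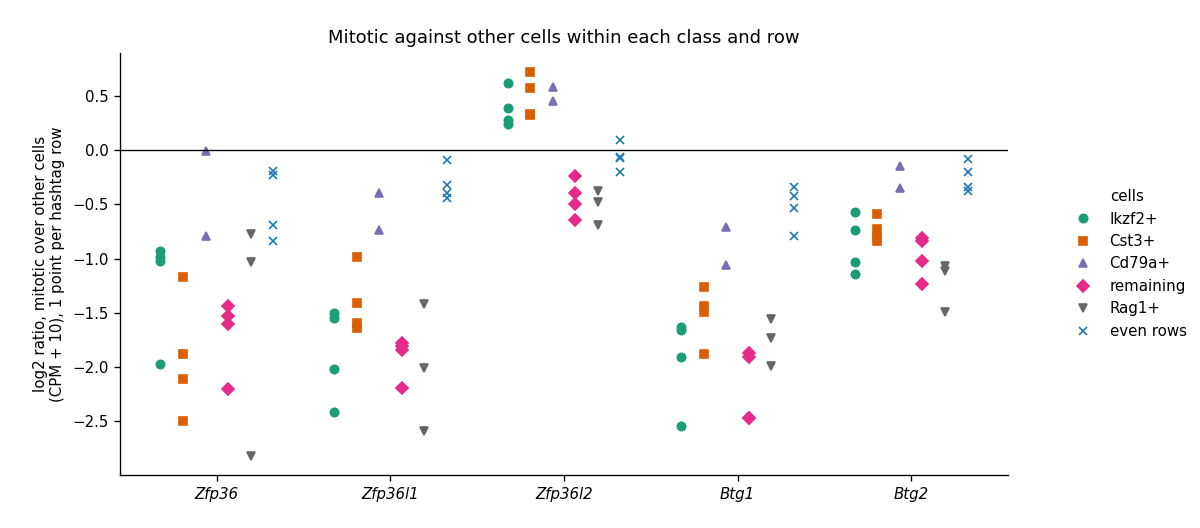
Log2 ratio of CPM + 10 between mitotic and other cells for each member, with 1 point per hashtag row, in 5 classes of the odd rows and in the even rows. Zfp36l2 lies above 0 in Ikzf2+, Cst3+ and Cd79a+ cells and below 0 in remaining and Rag1+ cells, and the even rows lie nearer to 0 than the Ikzf2+ cells for Zfp36, Zfp36l1, Btg1 and Btg2.

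Among the listed genes, mitotic Ikzf2+ cells had less Klf2 (76.6 against 177 CPM), Foxo1 (43.3 against 105 CPM), Slfn2 (17.2 against 36.8 CPM) and S1pr1 (6.34 against 23.3 CPM), the 4 called lower of 13 quiescence genes with a median of -0.45. Tob1 (15.2 against 30.3 CPM) and Pabpc4 (78.8 against 124 CPM) were the 2 of 18 deadenylation genes called, both lower. Of 10 known targets Cdk6 (273 against 122 CPM), Notch1 (89.5 against 35.8 CPM), Ccnd3 (468 against 264 CPM) and Ccne2 (21.3 against 7.7 CPM) were higher. Ccnd2 (91.7 against 251 CPM) and the antiapoptotic gene Bcl2 (67.5 against 169.8 CPM) were lower. The kinase gene Mapkapk2 (62.5 against 114 CPM), Map2k6 and Dusp1 (86.8 against 169.6 CPM) were the 3 of 6 called in the p38 list, all lower.

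Immediate-early transcripts are known to mark recently stimulated cells. In each row the cells were ranked by the share of their UMIs on Fos, Fosb, Jun, Junb, Egr1, Ier2, Nr4a1 and Atf3, none of which is a member, and the upper tertile was set against the lower. Among Ikzf2+ cells all 5 members were called higher in the upper tertile, against 8.87% of 7296 genes, and 0 lower, against 5.1%. Zfp36 was at 237 against 61.5 CPM (ratio 3.86, 3.3 to 4.52), Zfp36l1 at 856 against 278 CPM (3.07, 2.85 to 3.32), Btg1 at 359.9 against 138 CPM (2.61, 2.33 to 2.92), Zfp36l2 at 269.9 against 140.5 CPM (1.92, 1.7 to 2.17) and Btg2 at 205 against 112 CPM (1.84, 1.6 to 2.11). Every member was higher in 4 of 4 rows.

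These tertiles differed in other ways. The upper tertile had a median of 4340.0 against 7964 UMIs, and 17.4% against 44.1% of its cells were mitotic. Per cell, Btg2 (1.16 against 1.17 UMIs) and Zfp36l2 (1.53 against 1.47 UMIs) were about equal, whereas Zfp36 (1.34 against 0.643 UMIs), Zfp36l1 (4.84 against 2.91 UMIs) and Btg1 (2.04 against 1.44 UMIs) were higher. Without mitotic cells the log2 ratios of 1.79, 1.59, 0.90, 1.32 and 0.82 (Zfp36, Zfp36l1, Zfp36l2, Btg1, Btg2) became 1.27, 0.68, 0.82, 0.52 and 0.59, and Btg1 was no longer called. Within cells of 3000 to 6000 UMIs they were 0.82, 0.52, 0.51, 0.37 and 0.39, and Zfp36 alone was called.

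In the even rows depth differed little between the tertiles, with medians of 3172 and 3546 UMIs. Zfp36 was at 637, 734, 501 and 706 CPM in the upper tertiles of rows 12, 14, 16 and 18 and at 342, 349, 228 and 269.6 CPM in the lower tertiles, without overlap. Btg2 was at 553, 662, 521 and 727 CPM against 342, 399, 294 and 408 CPM, also without overlap. These 2 members were called higher, against 0.75% of 6537 genes, and 0 were called lower, against 0.719%. Zfp36 had a ratio of 2.15 (2.04 to 2.26) and Btg2 of 1.69 (1.61 to 1.78). Zfp36l2 (629 against 422 CPM, 1.49, 1.42 to 1.56), Btg1 (812 against 552 CPM, 1.47, 1.41 to 1.53) and Zfp36l1 (366 against 278 CPM, 1.32, 1.24 to 1.4) were higher in 4 of 4 rows, below the 1.5-fold limit on the log2 scale used. Within cells of 3000 to 6000 UMIs Zfp36 (0.99) and Btg2 (0.62) were again called.

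**Figure D5:**
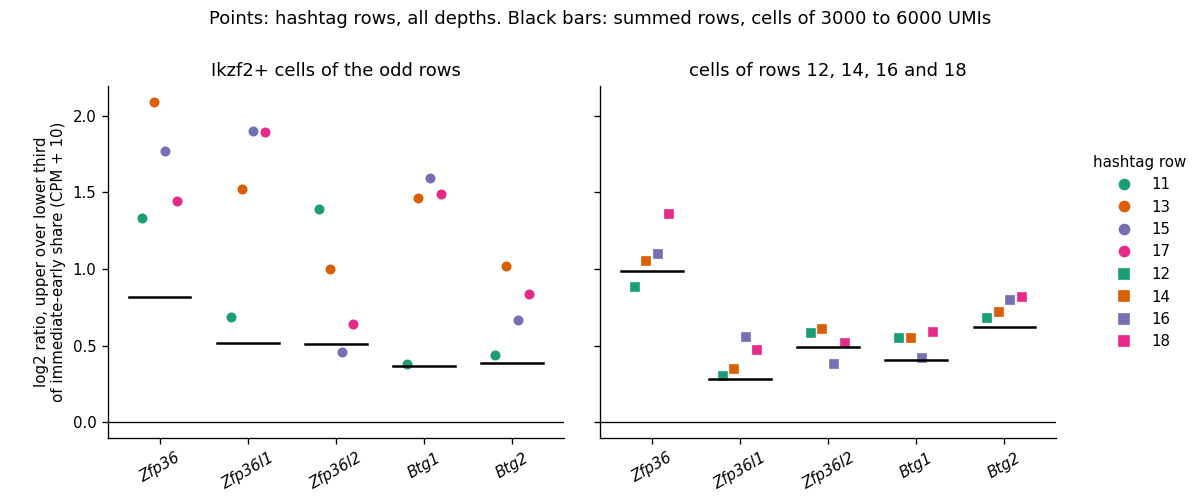
Log2 ratio of CPM + 10 between the upper and the lower tertile of cells by immediate-early share, for each member in the Ikzf2+ cells (left, circles) and the even rows (right, squares), with 1 point per hashtag row and a black bar for the summed rows of cells with 3000 to 6000 UMIs. All points are above 0, and the bars lie well below most points in the Ikzf2+ cells but near them in the even rows.

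Among the listed genes of the even rows, Dusp1, itself inducible, was at 970.3 against 312 CPM, Klf6 at 403 against 216 CPM, Ifng at 205 against 103 CPM and Tnf at 52.7 against 28.0 CPM, and 0 of 17 deadenylation genes and 0 of 15 decay regulators were called. Ifng and Tnf are 2 of the 11 tested known targets of the family. Of 13 tested mitotic genes 10 were called lower. In the Ikzf2+ cells the targets Nfkbid (72.7 against 14.9 CPM), Bcl2 (178 against 72.2 CPM), Ccnd2 (235 against 108 CPM), Pim1 (108 against 55.5 CPM) and Mcl1 (282 against 169 CPM) were higher, as were Tob1 (36.1 against 12.5 CPM) and Tob2 (log2 ratio 0.69). Their immediate-early tertiles carry the differences in depth and mitotic share given above.

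Within the even rows, cells with at least 5 UMIs of Ccl5, a chemokine gene of effector cells, were set against cells with at least 1 UMI of Izumo1r and 0 of Ccl5. No member was called, against 1.1% of 6470 genes called higher and 0.958% lower. Zfp36 was at 449 against 502 CPM (ratio 0.895, 0.839 to 0.954), Zfp36l1 at 294 against 342 CPM (0.859, 0.794 to 0.93), Zfp36l2 at 465 against 537 CPM (0.865, 0.812 to 0.921), Btg1 at 657 against 723 CPM (0.91, 0.862 to 0.96) and Btg2 at 470.4 against 533 CPM (0.883). All were slightly lower in the Ccl5+ cells, the first 4 in 4 of 4 rows and Btg2 in 3 of 4. Depth was alike, with medians of 3532 and 3548 UMIs, and the quiescence genes Klf2 (610.2 against 282 CPM), Tsc22d3 (90.9 against 44.4 CPM) and Klf3 (185 against 111 CPM) were higher in the same cells.

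Among the 4 even rows themselves the members ranged between 1.12-fold (Zfp36l1) and 1.59-fold (Zfp36). Row 16 was lowest for Zfp36, Zfp36l2, Btg1 and Btg2 and highest for Zfp36l1, and it also had the lowest summed level of the 8 immediate-early genes, 1595 CPM against 2161 to 2929.7 CPM in the other even rows. The part of the immediate-early share in this order was not tested.

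The genes whose levels were most alike to each member were taken over 24 groups, the 4 even rows and the 20 combinations of odd row and class, among 5712 genes that reached 50 CPM. The groups share 1 library, and they differ in depth and in cell type, so the correlations of log2(CPM + 10) describe these groups only. For Zfp36 they were Tmsb4x, Inpp5d and S100a11, each with r = 0.97. Btg1 was most like Pbxip1 (0.98), Sp100 (0.97) and Trim26 (0.97), and Btg2 most like Tent5a (0.96), Slfn1 (0.96) and Fgl2 (0.95). Zfp36l2 had Slco3a1 (0.93), Klk8 (0.93) and Frmd8 (0.92), and Zfp36l1 had Lrrc8d (0.92), Gpcpd1 (0.91) and Hip1r (0.91). Between members r was highest for Zfp36l1 with Btg1 (0.83) and Zfp36 with Btg1 (0.81) and lowest for Zfp36l1 with Zfp36l2 (-0.12). No member was among the 3 genes most like another.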

How the data were processed

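Per the study's methods, the authors aligned the reads to mm10 and made the deposited counts, whole-number UMI counts per gene and per hashtag for each barcode, with Cell Ranger 6.0.0. The mm10 coordinates given here are those of GRCm38. The counts were not normalized. Strand handling and a doublet filter are not given in the sources used here, and no doublet caller was run. Cells needed at least 1000 genes, at most 5% mitochondrial UMIs, and at least 10 hashtag UMIs with at least 80% of them on 1 of rows 11 to 18. Row totals of 2283162 to 14601545 UMIs set the precision.

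Counts were summed by row and class, divided by the total and multiplied by 1000000 (CPM). Ratios have exact 95% intervals for counting error only, and classes needed 20 cells in a row. The genes and lists named are the 5 members, 8 lists of related genes and, for each member, the 3 genes of most similar pattern. One gene of the quiescence list is not reported here. The members and lists were chosen with earlier results of these data known. Alternatives covered the hashtag limit, the cell filters, the split rules, scaling, the pseudocount and each row left out, and depth windows and mitotic subsets were added after seeing the data. The steps were tested on simulated data. Python 3.11.15, numpy 2.4.6, scipy 1.17.1 and pandas 2.3.3 were used.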

Additional observations from a re-analysis of the deposited data

Results flagged for a closer look

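Zfp36 in the remaining cells of row 11 stood apart, at 218 CPM with the nearest other row at 105 CPM, a gap of 0.863 of the whole range over 4 rows. Of 35 such groups of 4 rows this was the 1 that passed Dixon's 95% limit, and chance flags about 1 in 20. The remaining cells of row 11 also had the lowest median depth of the class, 2859 UMIs, and the highest summed immediate-early level, 1792 CPM. Their mitotic share was the lowest of the class, 27.2% against 38.1% to 48.9% in the other rows. Zfp36l1, Zfp36l2, Btg1 and Btg2 were also highest in row 11 within this class. The part of depth, immediate-early level or mitotic share in the Zfp36 value was not tested.

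The log2 ratio of Zfp36l2 between mitotic and other cells had opposite signs in different classes, with every row on its side. It was 0.34 in the Ikzf2+ cells, 0.54 in the Cst3+ cells and 0.51 in the Cd79a+ cells, against -0.55 in the Rag1+ cells and -0.51 in the remaining cells. The difference between classes was not tested.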

How the results depend on the processing

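No paired analysis was possible because no source used here ties the hashtag rows to the replicate numbers of the labels and no model was fitted between groups. Comparisons inside the odd rows or the even rows were made within each hashtag row, by the sign of the log2 ratio in each. Under the planned and added alternatives the members gave 485 values, of which 360 moved by less than the SD between rows and 125 by more, 0 reversed a called direction and 45 calls changed. With each row left out in turn, 200 values held 2 that moved by more, 0 reversed and 3 changed calls. The count of called members then stayed at 5 for the Ikzf2+ cells against the even rows, 3 for Rag1+ cells, 3 for Cd79a+ and 3 for Cst3+ cells, 4 for mitotic cells, 5 and 2 for the immediate-early tertiles of Ikzf2+ cells and even rows, and 0 for Ccl5+ cells. It ranged from 2 to 3 for the remaining cells, 3 being the count without row 15.

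The 2 members called in the immediate-early tertiles of the even rows became 4 with a limit of 60% of hashtag UMIs and 4 with upper against lower quartiles. The 2 called in the remaining cells became 1 with limits of 500 genes and 10% mitochondrial UMIs, and 1 with a pseudocount of 50 CPM. The 3 called in Cd79a+ cells became 5 with TMM scaling. The 5 called in the immediate-early tertiles of Ikzf2+ cells became 1 in cells of 3000 to 6000 UMIs. The 4 called in mitotic Ikzf2+ cells became 2 in cells of 6000 to 20000 UMIs, 1 when the split was made in Cd79a+ cells and 0 in the even rows. In cells of 5000 to 10000 UMIs 2 were called, but only 1 row entered there, so the same sign in every row could not fail. Fewer cells and rows entered the depth windows, and otherwise the cause was not tested.

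Among all genes, a pseudocount of 50 CPM cut the genes called in Ikzf2+ cells against the even rows from 1763 higher and 943 lower to 734 and 520. With at most 4000 genes per cell, a guard against doublets, the immediate-early tertiles of Ikzf2+ cells went from 647 higher and 372 lower to 210 and 166. In cells of 3000 to 6000 UMIs they were 214 and 191. In the tertiles of the even rows 47 genes were called lower, and 24 without row 18. For the Rag1+ cells 34.8% of the called genes were higher with TMM scaling, beside 24.6%.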
